A study of Mus musculus with 6 samples.

Results

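The retinoic acid genes described here are 9 genes that act in sequence on vitamin A in the mouse uterus: Rbp4 and Stra6 (transport and uptake), Rdh10 (retinol to retinaldehyde), Aldh1a1, Aldh1a2 and Aldh1a3 (retinaldehyde to retinoic acid), Crabp1 and Crabp2 (binding) and Cyp26a1 (breakdown). They were chosen by name for this pathway, with their values on these arrays already known. Each has 1 probe on the array, so they account for 9 of 55681 probes and 9 of the 20145 genes that could be named, and all 9 probes were well above background on all 6 arrays. Because these values chose the genes, their differences between the genotypes are given as a description, with no test. RNA came from whole uterus at gestation day (GD) 3.5 of natural pregnancy, in 3 Sox17f/f and 3 Sox17ed/ed samples, 1 sample to an array. Sox17f/f mice carry the floxed Sox17 allele on both copies and no recombinase, and the labels call them WT. Sox17ed/ed mice carry the same floxed alleles plus 1 copy of an iCre inserted at the Ltf locus (Ltf icre/+ Sox17f/f), which is active in the uterine epithelium from sexual maturity, so Sox17 of other cells, such as the endothelium, is not its target. The iCre allele and the loss of Sox17 went together and cannot be told apart. Females were mated at 8 to 10 weeks of age, and uteri were frozen after the embryos had been removed.

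Retinol circulates bound to RBP4 and enters cells through STRA6. Inside the cell, retinol dehydrogenases such as RDH10 oxidise it to retinaldehyde, and the aldehyde dehydrogenases ALDH1A1, ALDH1A2 and ALDH1A3 complete the conversion to retinoic acid. Retinoic acid is carried by the small binding proteins CRABP1 and CRABP2, acts in the nucleus through the RAR receptors paired with RXR, and is removed by the CYP26 hydroxylases. Cyp26a1 and the receptor gene Rarb are themselves classical targets of retinoic acid. In the uterus, retinoids are known for holding the lining in its columnar form, and Cyp26a1 is known as a gene of the endometrial epithelium around implantation.

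Sox17 itself checked the labels. Its log2 normalized intensity was 12.21, 12.07 and 12.22 on the Sox17f/f arrays and 9.75, 9.59 and 9.81 on the Sox17ed/ed arrays, 5.47-fold lower in Sox17ed/ed (limma adjusted p = 2.66e-05), and whether its probe lies in the floxed part is not given in the sources used here. Between 60.7% and 65.7% of spots on the Sox17f/f arrays, and between 56.8% and 59.4% on the Sox17ed/ed arrays, stood well above background, and 0 were saturated. All 6 arrays lay on 1 slide scanned once, the Sox17f/f arrays in 1 line of it and the Sox17ed/ed arrays in the other, so slide position and genotype cannot be told apart. All values below are on the log2 scale of the intensity after quantile normalization, where a difference of 1 is a doubling. They compare 1 gene's probe between arrays, since the brightness of different probes cannot be set side by side. The labels number the samples as replicates without saying which litters they came from, so p-values measure the spread between these samples, which may be partly technical.

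In Sox17ed/ed uteri the retinoic acid genes did not move as a block. Stra6, Aldh1a1, Aldh1a3, Crabp1 and Crabp2 were higher, Rbp4, Rdh10 and Cyp26a1 were lower, and Aldh1a2 was slightly higher but under the fold threshold. A gene was called when limma's unadjusted p was under 0.01 and the fold at least 1.4, the thresholds of the study's methods. By this rule 5 of the 9 genes were called higher, where 897 of all 14847 genes tested were (6.04%), and 3 were called lower, where 960 of all genes were (6.47%). The median log2 difference of the 9 genes was 0.72, beside 0 for all genes tested. Because the genes were selected on this contrast, nothing is read from these counts. The arrays of the genotypes did not overlap for any of the 9, with 6 genes higher on every Sox17ed/ed array and 3 lower. Among all genes tested the same held for 19.6% in the higher direction and 21.0% in the lower.

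**Figure D1:**
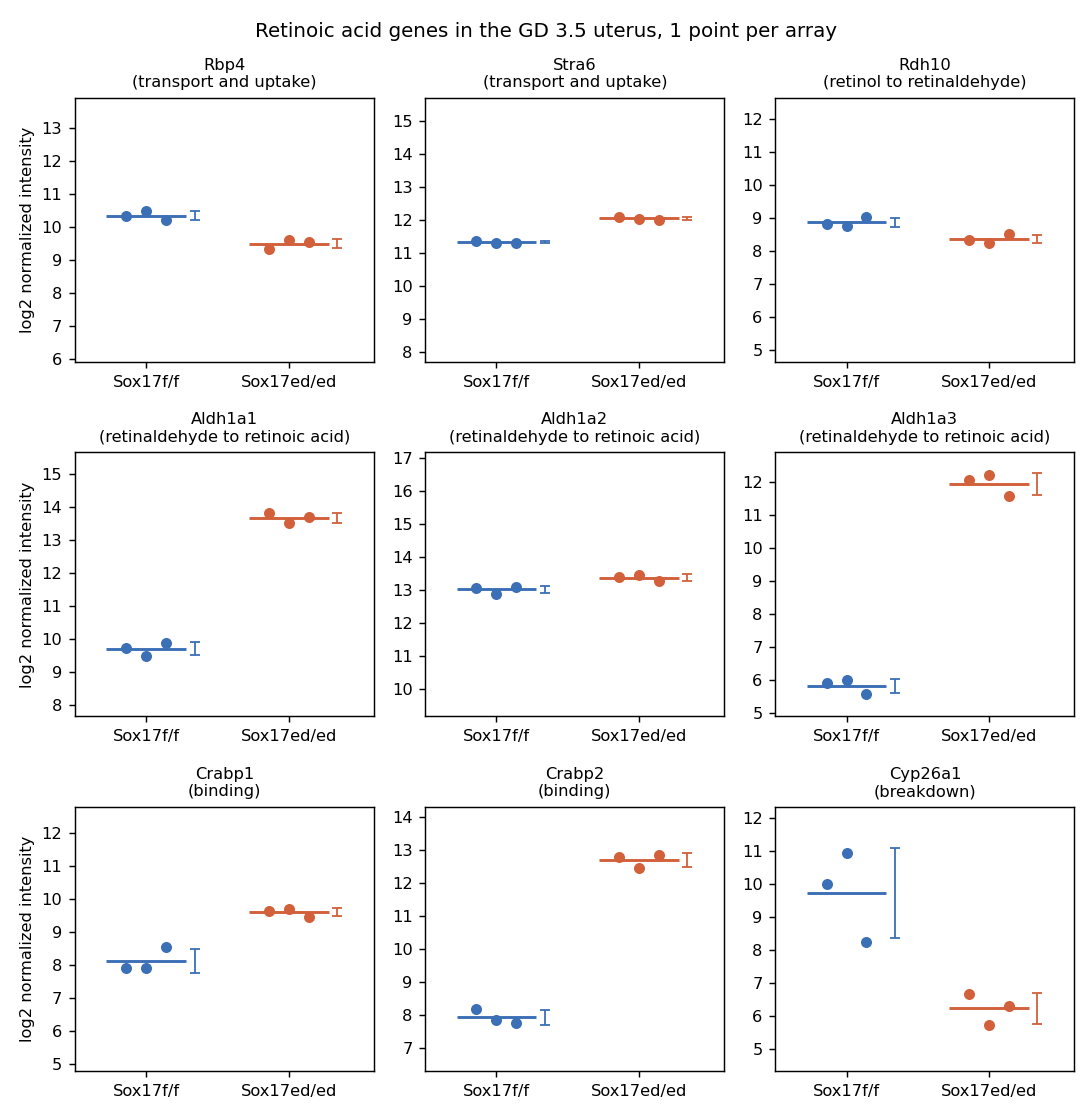
Log2 normalized intensity of the 9 retinoic acid genes (vertical axes, each spanning 8 log2 units around its own gene) in Sox17f/f (blue) and Sox17ed/ed (orange) uteri, with 1 point per array, a line at the mean of 3 arrays and a bar of 1 SD either side of it. Aldh1a1, Aldh1a3 and Crabp2 are far apart between the genotypes, Rdh10 and Aldh1a2 lie close together, and the Cyp26a1 points of Sox17f/f are the most widely spread.

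Rbp4, which encodes the carrier of retinol in blood, was lower in Sox17ed/ed. Its log2 intensity was 10.34, 10.49 and 10.21 on the Sox17f/f arrays and 9.35, 9.61 and 9.56 on the Sox17ed/ed arrays. The highest Sox17ed/ed array lay 0.60 below the lowest Sox17f/f array, and the means differed by -0.84 ± 0.11 (SE), 1.79-fold lower. Stra6, which encodes the membrane receptor that takes retinol from RBP4, went the other way. Its values were 11.35, 11.29 and 11.31 in Sox17f/f and 12.10, 12.02 and 12.01 in Sox17ed/ed, a difference of 0.72 ± 0.06 (SE), 1.65-fold higher. Stra6 was the steadiest of the 9 genes, with an SD of 0.03 among the Sox17f/f arrays, a spread that 92.5% of all genes tested equalled or passed. The carrier and its receptor thus lay on opposite sides of the control level.

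Around this step, 5 of the 6 other transport genes on the list were tested, 0 were called higher and 2 lower. Over all genes tested 6.04% were called higher and 6.47% lower. Ttr, which encodes transthyretin, the partner of RBP4 in blood, fell the furthest of the tested genes on the list. It stood at 10.05, 9.52 and 8.99 in Sox17f/f and was not well above background on any Sox17ed/ed array, at least 45.8-fold lower. Ttr passed the filter on dim probes only through the Sox17f/f arrays, so no p-value is given. Of 5 hepatocyte markers, Alb and Apoa1 were not well above background on any of the 6 arrays, Cyp2e1 did not pass the filter on dim probes, and Serpina1a was lower, by -3.26 ± 0.24 (SE, adjusted p = 0.000369). Lrp2, which encodes the endocytic receptor megalin, was 3.2-fold lower (-1.68 ± 0.23, adjusted p = 0.00498). Rbp7, on the same list, went the other way, with 9.72, 8.91 and 9.9 in Sox17f/f and 10.27, 10.48 and 10.32 in Sox17ed/ed. It was 0.84 higher and not called. Its call was gained with normexp background correction, with an eBayes trend, and without Sox17f/f replicate 2 or Sox17f/f replicate 3.

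Rdh10, the dehydrogenase that starts retinoic acid synthesis in the embryo, was lower by a small margin. Its values were 8.82, 8.76 and 9.02 in Sox17f/f and 8.33, 8.25 and 8.50 in Sox17ed/ed, a difference of -0.50 ± 0.10 (SE). At 1.42-fold lower it sat just inside the threshold of 1.4, whereas Aldh1a2, at 1.28-fold higher, sat outside it. The genotypes were 0.26 apart at their closest arrays, as far as the 3 Sox17f/f arrays were from each other (0.26). Rdh10 was no longer called without Sox17f/f replicate 3 (-0.43), Sox17ed/ed replicate 1 (-0.49) or Sox17ed/ed replicate 2 (-0.45), or after normexp background correction (-0.46), and it stayed lower in each.

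Of 12 other genes for retinol oxidation, 6 were tested, 2 of them called higher and 3 lower. The shares over all genes tested were 6.04% and 6.47%. Adh1, an alcohol dehydrogenase that oxidises retinol, was 2.48-fold higher (1.31 ± 0.11, adjusted p = 0.000715). Dhrs9 was 3.45 ± 0.77 higher and was well above background on 1 Sox17f/f array and 3 Sox17ed/ed arrays. It passed the filter on dim probes only through the Sox17ed/ed arrays, so no p-value is given. Dhrs9 lost its call without Sox17f/f replicate 2 or any 1 of the Sox17ed/ed arrays. Its difference was 4.28 without Sox17f/f replicate 1, 2.79 without Sox17f/f replicate 3 and 1.19 with normexp background correction, so its size is uncertain. Rdh1 (-1.25 ± 0.16, adjusted p = 0.00402) and Rdh9 (-0.76 ± 0.12, adjusted p = 0.00776) were lower. So was Sdr16c6, which was not well above background in Sox17ed/ed and at least 1.91-fold lower. Like Ttr, Sdr16c6 passed the filter only through the Sox17f/f arrays, so no p-value is given. Rdh1 and Rdh9 belong to a family of similar genes, and how far their probes bind each other's RNA was not tested. With normexp background correction Rdh1 differed by -0.84, and Rdh9, at -0.48, was not called. Dhrs3, the reductase that returns retinaldehyde to retinol and is itself a known retinoic acid target, was the 1 gene called of 8 for that reverse step, 1.93-fold higher (0.95 ± 0.09, adjusted p = 0.00118). Bco2, which cleaves carotenoids, was 1.72-fold higher (0.78 ± 0.11, adjusted p = 0.006), and none of Lrat, Dgat1, Lipe and Lpl, the genes for storing retinol as esters and releasing it, was called.

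The 3 genes of the last step of synthesis had different sizes of change. Aldh1a1 read 9.71, 9.48 and 9.87 in Sox17f/f and 13.80, 13.50 and 13.67 in Sox17ed/ed, and the closest arrays of the genotypes were 3.62 apart. The difference was 3.97 ± 0.13 (SE), 15.7-fold higher. Aldh1a3 was dim in the control uterus and bright in Sox17ed/ed. Its values were 5.92, 6 and 5.59 in Sox17f/f and 12.06, 12.22 and 11.59 in Sox17ed/ed, a difference of 6.12 ± 0.19 (SE), 69.4-fold higher and the 18th largest in size of all 14847 genes tested. Before normalization between arrays the processed signal of Aldh1a3 was 54.7 to 64.0 in Sox17f/f and 3080 to 4380 in Sox17ed/ed, and with normexp background correction the difference was 5.16.

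Aldh1a2, the enzyme best known for retinoic acid synthesis in the embryo and in endometrial stroma, barely differed. It read 13.08, 12.89 and 13.11 in Sox17f/f and 13.41, 13.47 and 13.27 in Sox17ed/ed, a difference of 0.36 ± 0.09 (SE). Every Sox17ed/ed array was above every Sox17f/f array, with a gap of 0.16 between the closest, and the gene was called under none of the 15 alternatives. Wt1, listed here as a mesothelial marker and also expressed in endometrial stroma, differed by 0.26 ± 0.06 (not called). Of 8 stromal markers none was called, where 6.04% of all genes tested were called higher and 6.47% lower.

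Aldh1a7, the gene next to Aldh1a1 on chromosome 19 and a close copy of it, was also higher. It stood at 5.78, 4.89 and 5.35 in Sox17f/f and 8.32, 7.74 and 8.12 in Sox17ed/ed, a difference of 2.72 ± 0.25 (SE, adjusted p = 0.000981). With normexp background correction the difference was 1.75. Whether the Aldh1a7 probe also bound Aldh1a1 RNA, or the reverse, was not tested. Aldh8a1, listed for the same step, differed by 0.05 (95% confidence interval -0.49 to 0.59). Of the 18 nearest protein-coding neighbours of the 9 genes, 13 were tested. Aldh1a7 and Islr, beside Stra6 (0.57 ± 0.10, adjusted p = 0.0114), were called higher, and 11 were not called. Of all 14847 genes tested 12990 were not called either, so nothing particular to the neighbours is read from this count. Both tested neighbours of Aldh1a3 (Lrrk1 and Asb7) and both of Crabp2 (Isg20l2 and Nes) were among those not called, with log2 differences from -0.21 to 0.36. Islr and the other neighbours were named by their place and not by their values.

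The binding proteins were both higher, Crabp2 by far the more. Crabp2, which hands retinoic acid to its nuclear receptors, read 8.19, 7.84 and 7.75 in Sox17f/f and 12.78, 12.44 and 12.85 in Sox17ed/ed. The difference was 4.76 ± 0.16 (SE), 27.1-fold higher, with 4.25 between the closest arrays. Crabp1, which holds retinoic acid in the cytoplasm, read 7.91, 7.92 and 8.56 in Sox17f/f and 9.65, 9.70 and 9.47 in Sox17ed/ed, a difference of 1.48 ± 0.19 (SE), 2.79-fold higher. Sox17f/f replicate 3 was the high array of its group for Crabp1, and without it the difference was 1.70. Fabp5, a fatty acid carrier that also binds retinoic acid, differed by -0.05 (95% confidence interval -0.41 to 0.31) and was not called.

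Cyp26a1, the gene that removes retinoic acid, lay furthest below the control level of the 9 genes and was the one whose control arrays were most widely spread. It read 10.00, 10.95 and 8.26 in Sox17f/f and 6.67, 5.74 and 6.32 in Sox17ed/ed. All Sox17ed/ed arrays were below all Sox17f/f arrays, by 1.59 at the closest, and the means differed by -3.49 ± 0.67 (SE), 11.2-fold lower. The SD of 1.36 among the Sox17f/f arrays was equalled or passed by 31 of all 14847 genes tested (0.209%), and the SD among the Sox17ed/ed arrays was 0.47. In processed signal before normalization between arrays, the Sox17f/f uteri ran from 328 to 2090 and the Sox17ed/ed uteri from 50.4 to 104. The size of the Cyp26a1 difference therefore moved with the control arrays: it was -2.88 without Sox17f/f replicate 2 and -4.24 without Sox17f/f replicate 3, and normexp correction gave -2.71. Under an ordinary linear model, which does not borrow the spread of other genes, Cyp26a1 was not called.

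Cyp26b1, which encodes a second retinoic acid hydroxylase, moved in the opposite direction. It read 8.03, 7.94 and 7.94 in Sox17f/f and 10.46, 9.45 and 10.06 in Sox17ed/ed, 4.05-fold higher (2.02 ± 0.24, adjusted p = 0.00285). Cyp26c1, the third gene of the family and the neighbour of Cyp26a1 on chromosome 19, did not rise well above background on any of the 6.

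The promoter of Cyp26a1 is shown because retinoic acid acts on it directly. The window runs from 250 bases before to 50 bases after the start, on GRCm38.p6 chr19:37697558-37697857, plus strand, from RefSeq. A direct repeat of 2 retinoic acid half-sites spaced by 5 bases (DR5, the element that RAR-RXR pairs bind; each half-site taken as A or G, G, G or T, then TCA) lies from 32 to 16 bases before the start, on the strand opposite to the gene, and is in capitals. The Rarb promoter, on GRCm38.p6 chr14:16575427-16575726, minus strand, is given beside it because it is the other listed retinoid gene whose window holds this element, in capitals from 53 to 37 bases before the start on the gene's own strand.
Cyp26a1: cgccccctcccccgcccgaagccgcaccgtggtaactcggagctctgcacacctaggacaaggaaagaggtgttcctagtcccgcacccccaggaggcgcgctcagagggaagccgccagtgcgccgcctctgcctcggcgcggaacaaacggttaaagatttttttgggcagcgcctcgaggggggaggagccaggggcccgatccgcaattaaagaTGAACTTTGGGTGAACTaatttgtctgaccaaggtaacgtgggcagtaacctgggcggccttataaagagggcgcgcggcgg
Rarb: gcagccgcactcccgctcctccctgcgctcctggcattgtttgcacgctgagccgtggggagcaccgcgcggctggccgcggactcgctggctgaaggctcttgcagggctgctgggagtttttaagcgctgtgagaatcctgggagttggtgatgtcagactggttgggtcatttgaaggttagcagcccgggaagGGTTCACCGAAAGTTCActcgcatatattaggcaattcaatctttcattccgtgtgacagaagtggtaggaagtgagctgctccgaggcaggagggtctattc
The repeat was found, on either strand, in 32 of 32851 promoters of this length (0.0974%). Of the 9 genes, Rbp4, Stra6, Aldh1a1, Aldh1a2, Crabp1 and Cyp26a1 were matched by symbol to 11 promoters, and Cyp26a1 had the only DR5. The form spaced by 2 bases (DR2), found in 0.268% of all promoters, and the SOX core AACAAT, found in 10.7%, were in none of the 11. Rdh10, Aldh1a3 and Crabp2 were not matched.

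The 2 promoters that hold the element belonged to genes that differed in opposite directions. Rarb rose 1.75-fold, from 8.07, 7.79 and 7.92 in Sox17f/f to 8.77, 8.61 and 8.80 in Sox17ed/ed (0.80 ± 0.10, adjusted p = 0.00285), and its second probe differed by 0.54. Cyp26a1 was 11.2-fold lower, as given above. Of the 31 genes with the repeat in this window 7 were tested, and apart from these 2 none was called. Over all genes tested 6.04% were called higher and 6.47% lower, and nothing is read from a count of 7.

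Among the other nuclear receptors no change passed the thresholds. Rarg differed by 0.43 ± 0.10 (adjusted p = 0.0334), under the fold threshold, and passed it without Sox17f/f replicate 3 (0.50). Rara differed by -0.02 (95% confidence interval -0.19 to 0.16), Rxra by 0.00 (-0.23 to 0.22), Rxrb by 0.17 (0.00 to 0.34) and Rxrg by -0.11 (-0.53 to 0.31). Among all genes tested 6.04% were called higher and 6.47% lower. Of 18 genes listed as responsive to retinoic acid in other tissues, 13 were tested, 0 were called higher and 2 lower. These were Rai14 (-0.61 ± 0.08, adjusted p = 0.00331) and Zfp703 (-0.75 ± 0.06, adjusted p = 0.00066), and the median of the 13 was -0.06.

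Over the whole list of 44 other retinoid genes, 35 were tested, 7 were called higher and 5 lower, and the median log2 difference was 0.02. Of all genes tested, 6.04% were called higher and 6.47% lower. The 7 were Bco2, Dhrs9, Adh1, Dhrs3, Aldh1a7, Cyp26b1 and Rarb, and the 5 were Ttr, Lrp2, Rdh1, Rdh9 and Sdr16c6. The genotypes did not overlap for 15 genes in the higher direction and 7 in the lower. Among all genes tested the shares were 19.6% and 21.0%. The list was written with earlier results of these data known, so nothing is read from these counts.

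**Figure D2:**
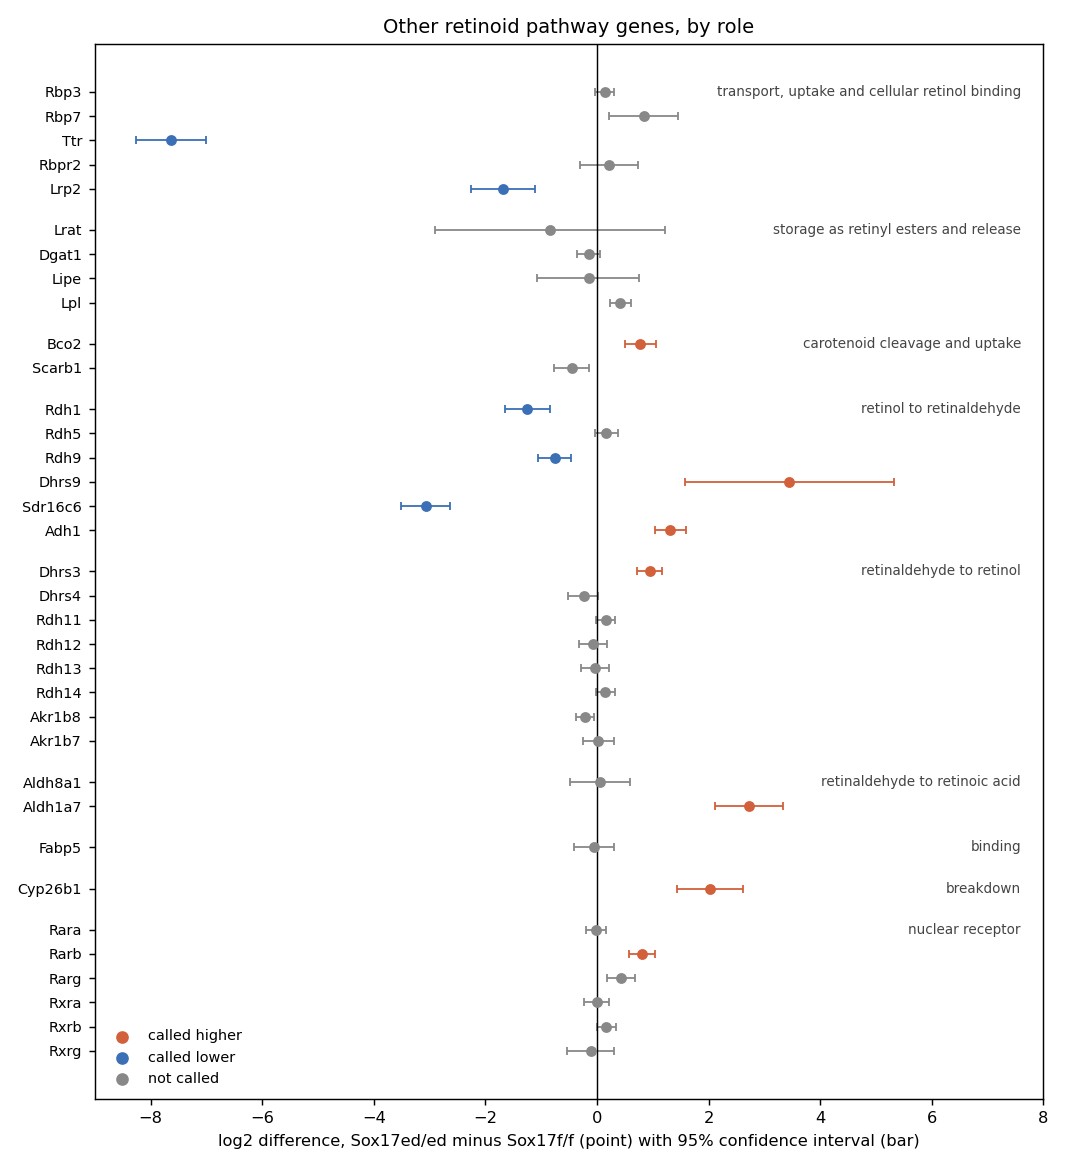
Log2 difference, Sox17ed/ed minus Sox17f/f (horizontal axis, point), with its 95% confidence interval from limma (bar), for the 35 tested retinoid genes other than the 9, grouped by role; orange points were called higher, blue points lower and grey points not called. Ttr and Sdr16c6 were not well above background in Sox17ed/ed, so their points are fitted values and not bounds, and the genes for storage and for all receptors but Rarb are grey.

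The array pattern of Cyp26a1 was followed most closely by Pax8, Med21, Cxcl17, Cdh26 and Kif5b, the 5 tested genes with the highest Pearson correlation with it over the 6 arrays (r = 0.999, 0.9972, 0.9964, 0.9958 and 0.9949). These values describe 6 arrays that share the genotype difference. Genes picked this way share the direction and array order of Cyp26a1 by selection, so their differences are described with no test. In all 5 genes, as in Cyp26a1, Sox17f/f replicate 2 was the highest array and Sox17f/f replicate 3 the lowest of the control arrays, and Sox17ed/ed replicate 2 was the lowest of all 6. Pax8, a transcription factor of the Müllerian epithelium, was lower by -0.91 ± 0.18 (SE), and Cxcl17, a mucosal chemokine, by -1.54 ± 0.31. Cdh26, a cadherin (-0.73 ± 0.14), and Kif5b, a kinesin (-0.83 ± 0.18), were lower too, whereas Med21, a Mediator subunit, was not called (-0.13 ± 0.06). Lrat, the gene that esterifies retinol for storage and is also known to respond to retinoic acid, was named after its values were seen. It read 5.37, 6.30 and 3.62 in Sox17f/f, in the same order as Cyp26a1, and 4.53, 2.90 and 5.32 in Sox17ed/ed, in another order. Its probe was dim, well above background on 2 of the 3 Sox17ed/ed arrays, and Lrat was not called. Nothing is read from the shared order of 3 arrays.

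**Figure D3:**
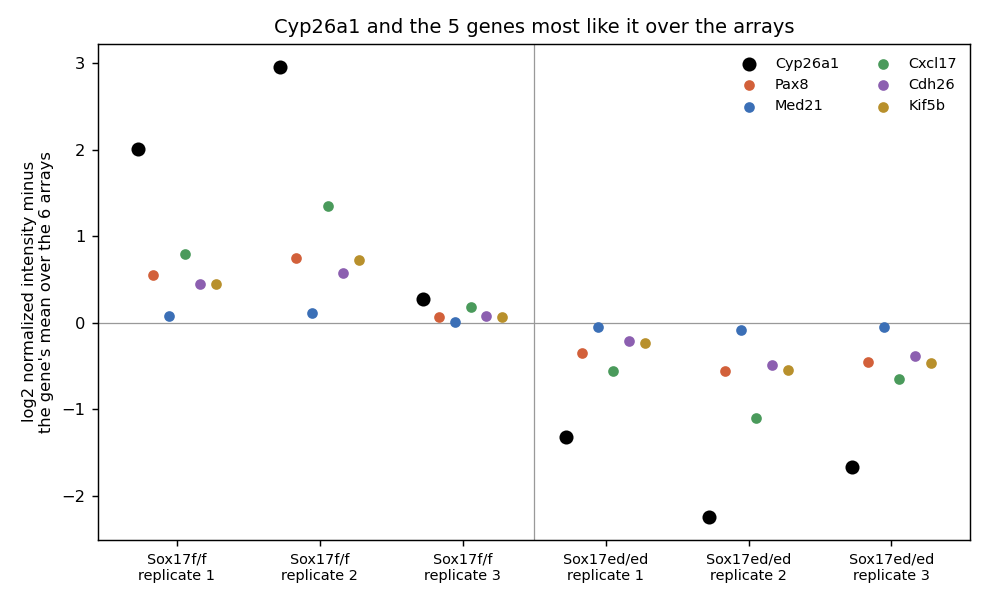
Log2 normalized intensity minus the gene's own mean over the 6 arrays (vertical axis) for Cyp26a1 (black) and the 5 genes most correlated with it, by array (horizontal axis), with 1 point per array and gene. Cyp26a1 covers the widest range, and in each gene Sox17f/f replicate 2 is the highest array and Sox17ed/ed replicate 2 the lowest.

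In whole uterus, fewer cells of a type and less RNA per cell cannot be told apart, and cell type markers moved between the genotypes along with the retinoic acid genes. Of 8 epithelial markers 4 were called higher, namely Krt19 (2.10 ± 0.13, adjusted p = 0.000222), Krt7 (1.46 ± 0.21, adjusted p = 0.00534), Krt8 (0.69 ± 0.17, adjusted p = 0.0355) and Cdh1 (0.59 ± 0.10, adjusted p = 0.0127). Cldn7 was lower (-0.71 ± 0.12, adjusted p = 0.00889) and Epcam, Krt18 and Esrp1 were not called. Over all genes tested 6.04% were called higher and 6.47% lower. The summed normalized intensity of the 8 was 43500 to 47600 in Sox17f/f and 50800 to 63000 in Sox17ed/ed, and the largest rise within it was that of Krt19. The part of these shifts in the differences of Aldh1a1, Aldh1a3, Crabp2 and Cyp26a1 was not tested.

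Mesothelium, which expresses several retinoic acid genes, gave mixed markers. Of 7 markers 6 were tested. For this list and those that follow, the shares called over all genes tested were 6.04% higher and 6.47% lower. Upk3b (1.56 ± 0.23, adjusted p = 0.00634) and Krt19, which is on both lists, were higher. Lrrn4, dark in Sox17ed/ed, was at least 1.86-fold lower, and Bnc1 did not rise well above background on any of the 6 arrays. Msln (-0.44), Wt1 (0.26) and Upk1b (0.24) were not called. The summed intensity of the 6 tested markers was 17200 to 18500 in Sox17f/f and 31200 to 36700 in Sox17ed/ed. Most of that rise was that of Krt19, which is also an epithelial marker, so the sum does not describe the other markers. The part of the mesothelial markers in the differences of the 9 genes was not tested. Of 5 squamous markers, 4 were tested and Krt5 was called higher. It was at least 5.25-fold higher by 1 probe, which was dark in Sox17f/f, while its second probe, dim on 5 of 6 arrays, differed by -0.75. Krt14 was not called. Trp63, the transcription factor of basal cells, and Krt13 were not called by their brighter probes (-0.12 and 0.06), but each has a second probe, not the one tested, that was dark in Sox17f/f and well above background on all 3 Sox17ed/ed arrays. By that probe Trp63 was at least 18.1-fold and Krt13 at least 3.32-fold higher in Sox17ed/ed, so the probes of both genes disagree. The summed intensity over the tested probes, 2500 to 3000 in Sox17f/f and 2530 to 2780 in Sox17ed/ed, was mostly that of the brighter Trp63 probe and does not describe the other probes. The part of the squamous markers in the differences of the 9 genes was not tested. Of 4 oviduct and ciliated cell markers Ovgp1 (-2.92 ± 0.22, adjusted p = 0.000422) and Dnah5 (-2.82 ± 0.53) were lower and Foxj1 was higher (2.44 ± 0.35). Dnah5 and Foxj1 were each above background on 1 array of the dimmer genotype. They passed the filter only through the brighter genotype, so no p-value is given for them. The summed intensity of the 4 was 1600 to 2600 in Sox17f/f and 409 to 489 in Sox17ed/ed, and most of that fall was that of Ovgp1. Of 6 smooth muscle markers Actg2 was lower (-0.64 ± 0.10, adjusted p = 0.00794), and none of the tested stromal, endothelial, leukocyte, adipocyte and ovary markers was called. Even so, 4 of the 5 endothelial markers (median -0.32) and 4 of the 6 smooth muscle markers (median -0.3) were lower on every Sox17ed/ed array. On these 2 lists 0 were higher on every Sox17ed/ed array. Among all genes tested 21.0% were lower and 19.6% higher in this way. Kdr was among the endothelial markers lower on every Sox17ed/ed array by its brighter probe (-0.37). Its second probe differed by -0.05, and there the genotypes overlapped. The part of these shifts in the differences of the 9 genes was not tested. Cyp11a1, an ovary marker that did not pass the filter on dim probes, read 9.42 on Sox17ed/ed replicate 3 and 1.83 to 2.22 on the other arrays, where it was not well above background. Without that array 5 of the 9 retinoic acid genes were again called higher and 3 lower, with Aldh1a3 at 6.30 and Cyp26a1 at -3.53.

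Under the 15 other settings the direction of each of the 9 genes held. Stra6 stayed between 0.63 and 0.74, Rbp4 between -0.91 and -0.76, Aldh1a1 between 3.85 and 4.06, Crabp2 between 4.44 and 4.89 and Crabp1 between 1.29 and 1.70. Aldh1a3 ranged from 5.16 to 6.30 and Cyp26a1 from -4.24 to -2.71.

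**Figure D4:**
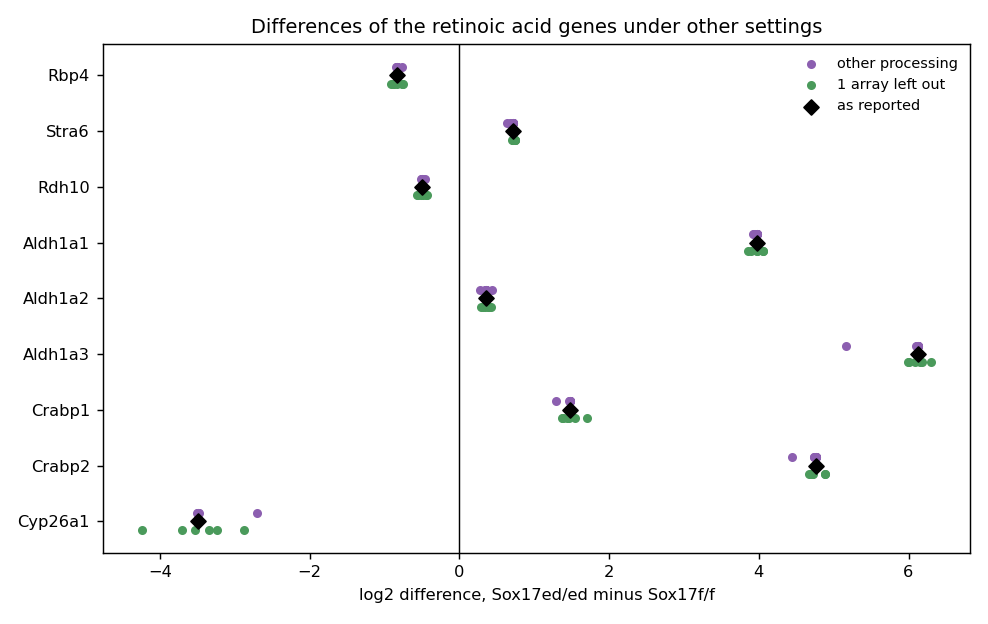
Log2 difference, Sox17ed/ed minus Sox17f/f (horizontal axis), of each retinoic acid gene as reported (black diamond), with 1 array left out (green) and under the other processing settings (purple). The points of each gene stay on 1 side of 0, Cyp26a1 covers the widest range, and the outlying purple points of Aldh1a3 (5.16) and Cyp26a1 (-2.71) are those with normexp background correction.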

How the data were processed

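Whole uterus samples at GD 3.5, 3 Sox17f/f and 3 Sox17ed/ed, were hybridized to 6 Agilent G3 Mouse GE arrays of 1 colour, and samples were grouped by genotype as labelled. The authors deposited spot intensity from Feature Extraction (11.0.1.1 in the file headers, 9.1 in the submitters' processing notes; array design on mm9), with the background already subtracted and no normalization between arrays. The authors also deposited a table of processed values per probe, which differed from the mean processed intensity of the probe's spots by a median of 0.00464%.

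The deposited intensities were log2 transformed and quantile normalized, as the methods state, after 3671 control spots and 169 to 302 outlier spots per array were dropped. Repeat spots were averaged, a probe was kept if 3 or more of the 6 arrays had it well above background, and the brightest probe stood for a gene. By accession, 26582 of the 55681 probes found 20145 genes in the RefSeq table of GRCm38.p6, and 14847 genes were tested. A gene needed 2 values per genotype; no array was missing for the 9 genes. Genotypes were compared with limma 3.58.1 in R 4.3.3 (lmFit, eBayes), and p-values were adjusted by Benjamini-Hochberg over those 14847 genes. The methods name no test. Steps were tested on simulated data, and Python 3.11.15, pandas 2.3.3 and matplotlib 3.10.9 searched promoters and drew plots. With 3 arrays per genotype, their number limits the precision.

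The 9 genes and all gene lists were chosen with earlier results of these data known. Genes were named by rule: the 9 genes, Sox17, every called gene of the other retinoid and the responsive lists, the 6 RAR and RXR genes, Cyp26b1, Cyp26c1, Aldh1a7, the 5 genes most correlated with Cyp26a1, and called markers of the lists for uterine epithelium, endometrial stroma, smooth muscle, endothelium, leukocyte, mesothelium, adipocyte, ovary, oviduct and ciliated cell, stratified squamous epithelium and hepatocyte. Other names were added after values were seen, and 1 gene covered by the rule is not reported here. A probe dark throughout 1 genotype (never well above background there) is given as a bound: the mean of the bright genotype against a floor, which on each dim array is the dimmest signal still marked well above background, or the probe's signal where that is brighter. Such a probe could pass the filter only through the bright genotype, so its call is a description and no p-value is given with it. The same holds for Dhrs9, Dnah5 and Foxj1, each above background on 1 array of the dimmer genotype, though these are not given as bounds. The alternatives were a 75th percentile shift, normexp with an offset of 50 (on the median spot signal, in place of the planned mean signal), no filter, the filter on all 6 arrays, averaging the probes of each gene, an eBayes trend, limma without moderation (an ordinary linear model), the table of processed values, a replicate block and each array left out.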

Additional observations from a re-analysis of the deposited data

How the results depend on the processing

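The count of all genes called was 1857 and stayed within 1370 to 1945 under all 15 alternatives; 1370 came from the ordinary linear model, and leaving out 1 array gave 1582 to 1945. The 5 retinoic acid genes called higher and the 3 called lower stayed within 1.5 times under every alternative; with 1 array left out they were 5 and 2 to 3. The other retinoid genes called lower were 5, became 3 where all 6 arrays had to be above background, and 3 to 6 with 1 array left out. The count was 3 without Sox17f/f replicate 1 or Sox17f/f replicate 3, where Ttr and Sdr16c6, dark in Sox17ed/ed, were no longer tested. No paired analysis entered the results: the replicate numbers are not tied to litters or batches by the labels, and deviations of same-numbered arrays correlated at 0.06, -0.11 and 0.00. With the replicate block 1796 genes were called, and the calls of the 9 genes and of the named retinoid genes did not change. Limits are that 1 probe stands for each of the 9 genes and that 3 arrays per genotype set the precision. Differences of probes dim or near background on 1 side, such as Aldh1a3, Aldh1a7, Dhrs9, Ttr and Sdr16c6, depend on the background correction. Bco2, Rdh9, Dhrs9, Rdh10 and Cyp26a1 lost their call under at least 1 alternative, Cyp26a1 under the ordinary linear model.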
